A study of Mus musculus with 9 samples.

Results

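Condensin, cohesin and the type II topoisomerases were followed through 9 genes on 9 Affymetrix arrays, 6 of mouse alveolar rhabdomyosarcomas and 3 of skeletal muscle from wild-type mice. The genes were Top2a and Top2b for topoisomerase II, Smc2, Smc4, Ncapd2 and Ncaph for condensin, and Smc1a, Smc3 and Rad21 for cohesin. Every probe set whose only gene symbol in the platform annotation was 1 of these was taken, which gave 20 of the 22626 probe sets that are no controls, and 9 of the 12393 genes tested. No filter on low values was applied, so all 9 genes and all 20 probe sets were tested. The labels give the tumours only as alveolar rhabdomyosarcoma, a soft-tissue tumour with features of the skeletal muscle lineage, and the controls only as wild-type muscle. The sources used here do not give the driving alleles, the strain, the age, which muscle was sampled or whether samples came from separate animals. P-values therefore measure the spread between these samples, which may be technical, and the number of arrays limits the precision.

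Condensin and cohesin are ring-shaped complexes built on pairs of SMC proteins, long ATPases that fold back on themselves. Condensin, with SMC2 and SMC4, compacts chromosomes for mitosis, while cohesin, with SMC1A and SMC3, holds sister chromatids together and forms chromatin loops between divisions. Topoisomerase II cuts both strands of a DNA helix and passes another helix through the gap, which untangles sister chromatids. Top2a is known as the form of dividing cells, and Top2b as the form that non-dividing cells keep. Adult skeletal muscle consists mostly of fibres whose nuclei no longer divide.

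The values are MAS5 signals, a linear brightness in arbitrary units, after every array was multiplied to 1 trimmed mean. Muscles 1 and 3 had been deposited on a lower scale and were multiplied by 1.6995 and 3.5493. RNA quality was read from Gapdh, whose 3' probe set was brighter than the 5' one by a factor of 1.93 to 9.39 in tumours and of 1.68, 57.17 and 33.0 in muscles 1 to 3. For Actb the same factor was 3.35 to 6.78 in tumours and 1.87, 4.06 and 4.35 in muscles 1 to 3, so the 2 genes did not order the groups alike. Tumours 1 and 4 also stood apart on spike-in control probe sets, which carry no sample RNA. The 3' probe set for cre gave 57126 and 38253 there, at most 19353 in any other tumour and at most 16889 in muscles. Other spike-ins differed between the groups: the DapX 3' probe set gave 116.1 to 949.8 in tumours and 2315.6 to 5844.2 in muscles. The LysX, PheX and ThrX 3' probe sets were also higher in every muscle than in any tumour, whereas the r2-Bs-lys 3' one overlapped. The part of this in the differences of the 9 genes was not tested. Without tumours 1 and 4, Top2a, Smc2, Smc4 and Ncaph were still called and Ncapd2 was not. Tests ran on log2(signal + 16) with limma over all genes, and a gene is called where its Benjamini-Hochberg adjusted p is under 0.05. In these bulk samples, fewer cells of a type and less RNA per cell cannot be told apart.

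Top2a and the 4 condensin genes rose in tumours, whereas Top2b and the 3 cohesin genes were not called. Of the 9 genes 5 were called higher and 0 lower, where 17.8% of all 12393 genes were called, 8.66% higher and 9.09% lower (limma, adjusted p under 0.05). The median log2 difference of the 9 genes was 1.28, against 0.10 over all genes. At the level of probe sets 7 of 20 were called higher and 0 lower, against 7.88% and 7.53% of all probe sets. In 5 of the 9 genes, namely Top2a, Smc4, Ncapd2, Ncaph and Smc1a, every tumour signal lay above every muscle signal, which was so for 10.7% of all genes, and the reverse for 11.0%. The count of 5 called genes fell to 2, Top2a and Smc4, without muscle 3, and to 3, Top2a, Smc4 and Ncaph, without muscle 1.

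**Figure D1:**
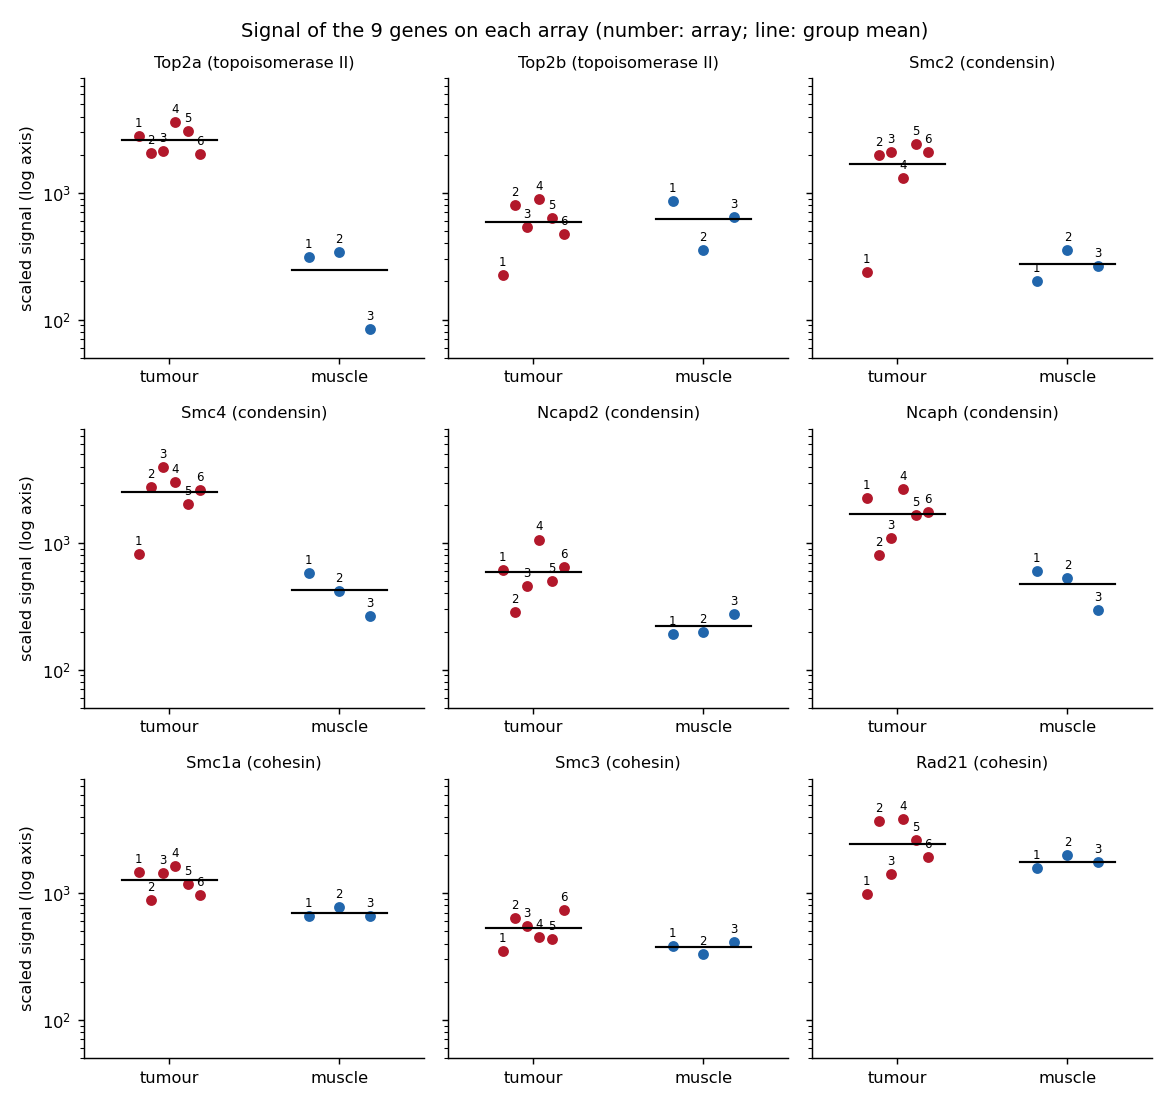
Scaled MAS5 signal of each of the 9 genes on a log axis, for the 6 tumours at the left and the 3 muscles at the right of each panel, with array numbers beside the points and lines at the group means. Tumours and muscles are apart for Top2a, Smc4, Ncapd2, Ncaph and Smc1a, and tumour 1 lies among the muscles for Smc2 at 236.5.

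Top2a encodes topoisomerase II alpha. Its signal was 2833, 2050.3, 2141, 3593.3, 3090.2 and 2021.7 in tumours 1 to 6, against 312.3, 340.1 and 83.8 in muscles 1 to 3. The tumours lay close together, with a highest signal 1.78 times the lowest, and far above the muscles. Among the muscles the highest was 4.06 times the lowest, because muscle 3 was low. Top2a averaged 2621.6 ± 652.0 in tumours (n = 6, SD) and 245.4 ± 140.6 in muscles (n = 3, SD). This was an 11.3-fold rise on the offset scale, a log2 difference of 3.50 ± 0.41 (SE) with a limma adjusted p of 8.8e-05. Without muscle 3 the log2 difference was 2.91, with an adjusted p of 0.00068. Its other probe set gave 10.6 to 33.3 in tumours and at most 17.6 in muscles, dim on every array, and did not differ (adjusted p = 0.82). With both probe sets averaged, the Top2a difference was 1.84 (adjusted p = 0.0027).

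Top2b encodes topoisomerase II beta, which acts in transcription as well as in DNA untangling. Its signal was 225.4, 802.5, 536.1, 890.6, 633.9 and 469.4 in tumours 1 to 6, against 858.3, 351.8 and 646.8 in muscles 1 to 3. The groups overlapped, and tumour 1 was the lowest array. Top2b averaged 593.0 ± 239.9 in tumours (n = 6, SD) and 619.0 ± 254.4 in muscles (n = 3, SD), a log2 difference of -0.09 with a 95% interval of -1.04 to 0.86 (adjusted p = 0.93). A change of 0.80, the size measured for Smc1a, lies within that interval in either direction. Its other 2 probe sets were dimmer, at most 119.7 on any array, and were not called either.

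The promoter sequences of the 2 topoisomerase genes and of 3 other members are shown because these genes differed in whether they rose in the tumours. RefSeq promoter sequences of build GRCm38.p6 were matched for 7 of the 9 genes. Smc4 and Rad21 were not matched. The 250 bases before the transcription start are written 5' to 3' in lower case, and capitals mark matches on either strand to CCAAT and to TTTGAA or TTCGAA. The first, CCAAT, is the motif of the factor NF-Y, and the other pair are forms of the cell cycle genes homology region, an element of many genes expressed late in the cell cycle.
Top2a, chr11:99024190-99024439, minus strand: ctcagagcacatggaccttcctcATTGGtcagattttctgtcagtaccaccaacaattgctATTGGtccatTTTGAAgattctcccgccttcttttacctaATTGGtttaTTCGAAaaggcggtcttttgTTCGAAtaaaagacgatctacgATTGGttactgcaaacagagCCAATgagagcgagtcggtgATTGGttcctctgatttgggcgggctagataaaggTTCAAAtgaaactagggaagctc
Ncapd2, chr6:125191587-125191836, minus strand: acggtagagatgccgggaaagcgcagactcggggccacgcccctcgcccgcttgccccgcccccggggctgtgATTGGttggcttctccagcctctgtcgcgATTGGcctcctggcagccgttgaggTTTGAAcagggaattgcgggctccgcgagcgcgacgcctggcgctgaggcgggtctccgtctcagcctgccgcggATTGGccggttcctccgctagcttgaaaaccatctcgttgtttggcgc
Ncaph, chr2:127133955-127134204, minus strand: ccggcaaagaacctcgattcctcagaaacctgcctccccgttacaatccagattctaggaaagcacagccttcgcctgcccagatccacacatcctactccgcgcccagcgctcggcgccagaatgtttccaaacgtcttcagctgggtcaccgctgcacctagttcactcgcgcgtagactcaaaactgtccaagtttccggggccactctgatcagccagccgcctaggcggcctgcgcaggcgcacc
Top2b, chr14:16364956-16365205, plus strand: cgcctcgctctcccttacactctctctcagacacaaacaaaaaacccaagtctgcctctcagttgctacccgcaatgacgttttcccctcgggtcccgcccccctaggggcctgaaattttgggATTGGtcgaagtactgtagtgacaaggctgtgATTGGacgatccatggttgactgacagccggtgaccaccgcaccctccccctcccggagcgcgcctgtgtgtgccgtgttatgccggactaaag
Smc3, chr19:53600146-53600395, plus strand: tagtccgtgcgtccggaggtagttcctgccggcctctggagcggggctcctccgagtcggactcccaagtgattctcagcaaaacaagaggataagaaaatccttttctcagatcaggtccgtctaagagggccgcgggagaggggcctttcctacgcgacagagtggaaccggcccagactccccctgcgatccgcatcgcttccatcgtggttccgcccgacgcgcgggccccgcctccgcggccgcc

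The Top2a window held 6 matches to CCAAT, 2 to TTTGAA and 2 to TTCGAA, the nearest of the last 2 kinds beginning 23 bases before the start. The Ncapd2 window held 3 matches to CCAAT and 1 to TTTGAA, and the Smc2 window, not printed, held 1 of each. Ncaph, which also rose, held 0 matches to any of these, as did Smc3, which was not called. Top2b held 2 matches to CCAAT and 0 to the other motifs, and Smc1a, not printed, 1 and 0. No matches overlapped each other. Over 32851 windows of the same length, for 27025 gene symbols, 33.8% held CCAAT and 17.1% held TTTGAA or TTCGAA. Windows with 3 or more matches to CCAAT made up 2.79%, and those with 6 or more 0.0578%. A match is a description of the letters in 1 annotated window, not of a site in use.

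All 4 condensin genes rose in tumours, and Smc4 and Smc2, which encode its ATPase subunits, had the largest log2 differences of the 9 genes after Top2a. Smc4 had signals of 821.2, 2756, 3953.8, 3052, 2014 and 2612.4 in tumours 1 to 6, against 583.1, 416.6 and 264.8 in muscles 1 to 3. Every tumour was above every muscle, though tumour 1 came near to muscle 1. Smc4 averaged 2534.9 ± 1053.0 in tumours (n = 6, SD) and 421.5 ± 159.2 in muscles (n = 3, SD). The rise was 5.53-fold, with a log2 difference of 2.47 ± 0.45 (SE) and a limma adjusted p of 0.0019. A second Smc4 probe set rose as well, by 2.24 ± 0.34 (adjusted p = 0.00057). It gave 884.3 to 2364.6 in tumours and 286.0 to 350.4 in muscles, with no overlap. The third was dim, with means of 143.9 in tumours and 84.4 in muscles, and was not called (adjusted p = 0.69). Averaged over the 3 probe sets the Smc4 difference was 1.74 (adjusted p = 0.0055).

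Smc2 was read by 1 probe set and divided the tumours. Its signal was 236.5, 1972.6, 2116.8, 1299.7, 2417.7 and 2103.7 in tumours 1 to 6, against 202.9, 353.8 and 262.2 in muscles 1 to 3. Tumour 1 stood within the muscle range, and the other 5 tumours were above all muscles. Smc2 averaged 1691.2 ± 803.5 in tumours (n = 6, SD) and 273.0 ± 76.0 in muscles (n = 3, SD). That is a rise of 4.93-fold (log2 2.30 ± 0.60, SE; limma adjusted p = 0.017). Without tumour 1 the difference was 2.79, with an adjusted p of 4e-05. The Smc2 call was lost without muscle 1 (adjusted p = 0.076), without muscle 3 (0.071), with quantile normalization (0.051) and with median centring (0.058), in a range of 4e-05 to 0.25 over 21 alternatives.

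Ncaph and Ncapd2 encode non-SMC subunits of condensin I: the kleisin that closes the ring and a HEAT-repeat subunit. Ncaph gave 2283.7, 810.2, 1085, 2664.1, 1652.1 and 1740.6 in tumours 1 to 6, against 599.9, 529.5 and 296.7 in muscles 1 to 3. No tumour fell within the muscle range, and tumours 1 and 4 were the highest. The Ncaph difference was 1.76 ± 0.41 on the log2 scale (SE), 3.38-fold, with an adjusted p of 0.0084. This probe set carries the suffix x, which marks probes that may bind other transcripts, but the second Ncaph probe set rose by 1.54 ± 0.39 (adjusted p = 0.015). The second gave 334.6 to 811.5 in tumours and 131.9 to 229.1 in muscles. By it tumour 1 was among the lower tumours at 396.2, and tumour 6 was the highest. The Ncaph call was lost without muscle 3 (log2 1.46, adjusted p = 0.076, in a range of 0.00082 to 0.43 over 21 alternatives).

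Ncapd2 had the smallest of the 5 called differences. Its signal was 615.1, 284.2, 457.9, 1065, 497.6 and 648.5 in tumours 1 to 6, against 189.5, 197.0 and 276.1 in muscles 1 to 3. The lowest tumour, tumour 2, was only just above muscle 3. Ncapd2 differed by 1.28 ± 0.41 (log2, SE), or 2.42-fold (limma adjusted p = 0.043). This call was close to the threshold and was lost in 12 of 21 alternatives, without any 1 of tumours 3 to 6 or of the muscles among them, at adjusted p of 0.057 to 0.16. The direction was higher in all 21.

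**Figure D2:**
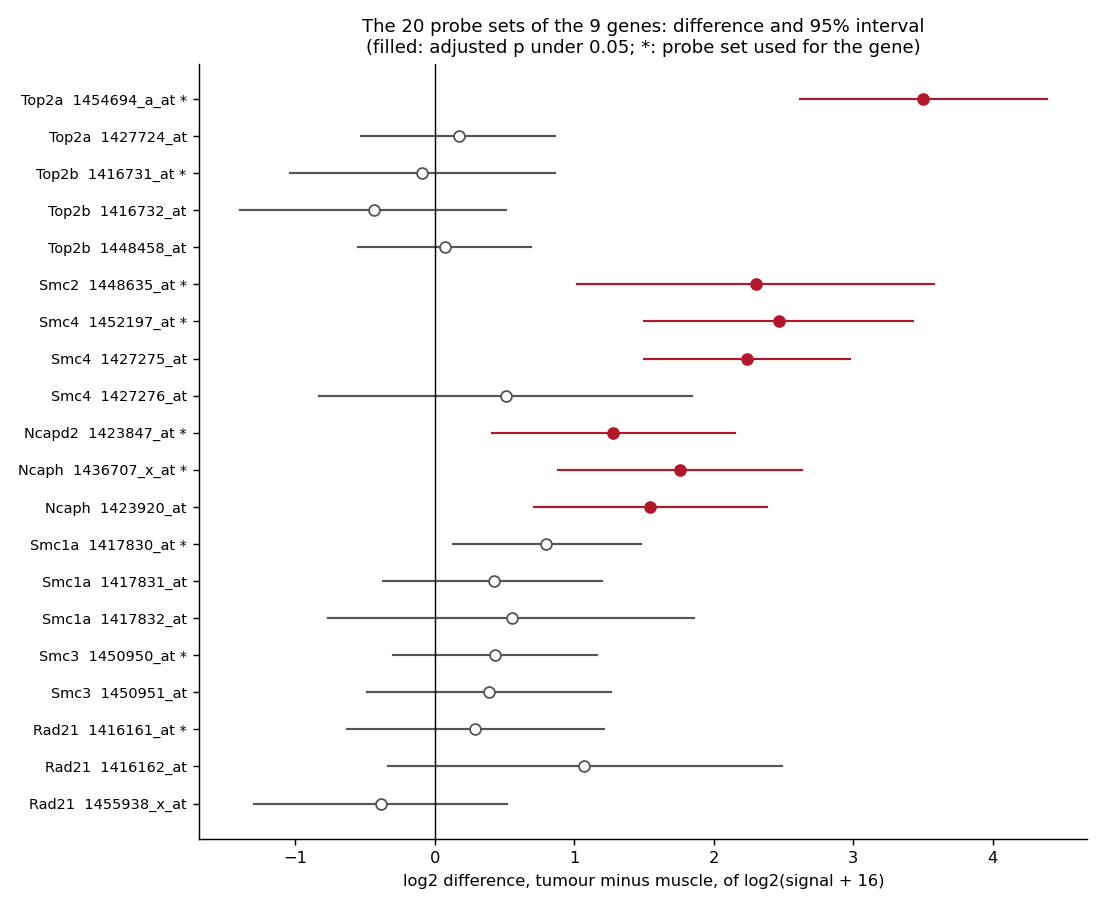
Log2 difference of tumour minus muscle, with 95% intervals, for the 20 probe sets of the 9 genes, with a star at the probe set that stands for the gene. The 7 called probe sets, filled, belong to Top2a, Smc2, Smc4, Ncapd2 and Ncaph, and the intervals of the 8 cohesin probe sets include 0 apart from that of the brightest Smc1a probe set.

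None of the 3 cohesin genes was called in either direction. Smc1a encodes an ATPase subunit of the cohesin ring. It gave 1460.2, 879.8, 1445.7, 1631.4, 1178.8 and 962.3 in tumours 1 to 6, against 655.5, 778.1 and 662.5 in muscles 1 to 3. All tumours were above all muscles, but the step was small. The log2 difference was 0.80, with a 95% interval of 0.14 to 1.47, and missed the threshold (limma adjusted p = 0.095). Smc1a was called without tumour 2 (adjusted p = 0.049) and without the rescaling of 2 muscle arrays (0.023), in a range of 0.023 to 0.6 over 21 alternatives. Its other 2 probe sets differed by 0.42 and 0.55 and overlapped between the groups.

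Smc3 encodes the partner ATPase of SMC1A. It gave 350.1, 638.1, 550.4, 452.1, 431.6 and 731.8 in tumours 1 to 6, against 384.5, 329.0 and 411.7 in muscles 1 to 3. Only tumour 1 fell within the muscle range. The log2 difference was 0.43, with a 95% interval of -0.29 to 1.16 (adjusted p = 0.46). Its second probe set gave a similar difference of 0.39 but ordered the tumours otherwise. There tumour 1 was the highest tumour at 543.4, and tumour 2, at 160.1, was below all muscles.

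Rad21 encodes the kleisin that closes the cohesin ring and is cut by separase at anaphase. It gave 988.3, 3732.2, 1409.8, 3833.8, 2621.8 and 1938.5 in tumours 1 to 6, against 1564.4, 2008.5 and 1750.9 in muscles 1 to 3. Tumours 2, 4 and 5 were above all muscles, and tumours 1 and 3 were below all of them. The log2 difference was 0.29, with a 95% interval of -0.63 to 1.21 (adjusted p = 0.74). Its 3 probe sets did not point the same way, at 0.29, 1.07 and -0.39, and none was called. Its direction turned to -0.02 on tumours 1 to 3 and the 3 muscles alone.

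Whether the genes of a pair changed by different amounts was asked within arrays, for 5 pairs. For each array the log2 value of a cohesin ATPase gene was subtracted from that of a condensin ATPase gene, and Top2b from Top2a. Only the gap between tumours and muscles carries meaning, since different probe sets bind with different strength. Top2a minus Top2b was 2.20 ± 0.74 in tumours (n = 6, SD) and -1.40 ± 1.34 in muscles (n = 3, SD), so that the log2 change of Top2a exceeded that of Top2b by 3.59, and all 6 tumours were above all muscles. The exact two-sided permutation test gave p = 0.0238, the smallest that 84 regroupings allow, and 0.0595 after Benjamini-Hochberg adjustment over the 5 pairs. Smc4 minus Smc3 was 2.13 ± 0.60 in tumours (n = 6, SD) and 0.10 ± 0.63 in muscles (n = 3, SD), a gap of 2.03 that held in all 6 tumours (exact p = 0.0238, adjusted 0.0595). With all probe sets of a gene averaged, the gaps of these 2 pairs were smaller, at 1.99 for Top2a minus Top2b and 1.33 for Smc4 minus Smc3.

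The 3 other pairs had gaps of the same direction with tumour 1 as the exception. Smc2 minus Smc3 and Smc4 minus Smc1a had gaps of 1.87 and 1.66 (exact p = 0.0476 each, adjusted 0.0595), and Smc2 minus Smc1a one of 1.50 (exact p = 0.143, also 0.143 adjusted). In these 3 pairs 5 of 6 tumours were above all muscles. No pair passed after adjustment with all 9 arrays. Without tumour 1 all 5 pairs did, at an adjusted exact p of 0.036 with gaps of 2.00 to 3.32. That p is the smallest the remaining arrays allow. Leaving out tumour 1 removed the only exception in 3 of the pairs, so the outcome followed from that choice of array.

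**Figure D3:**
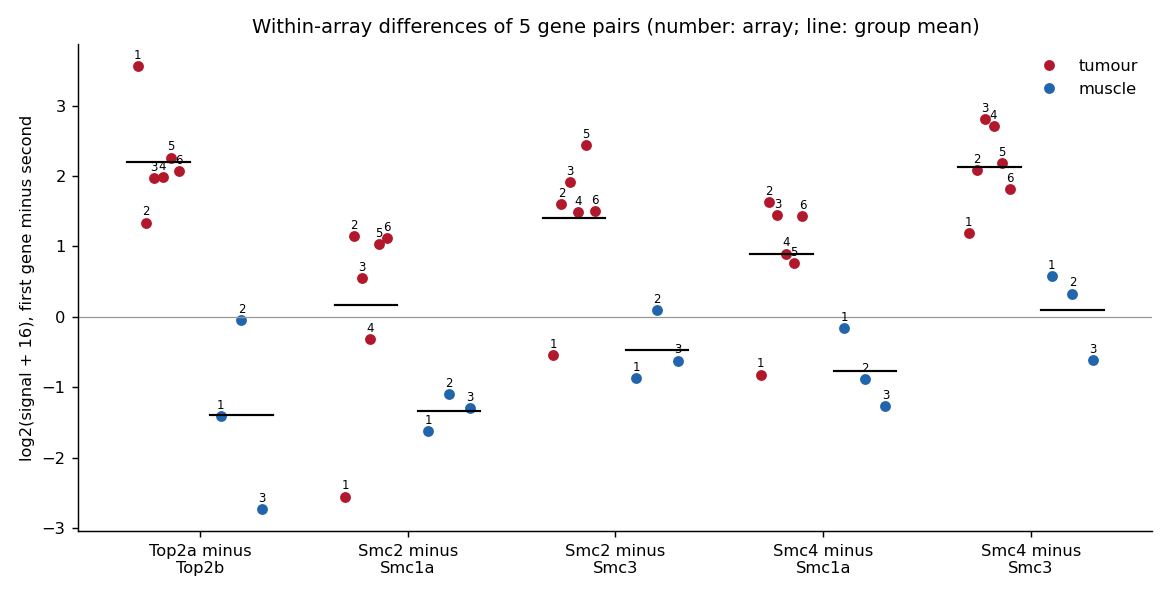
Log2(signal + 16) of the first gene minus that of the second on each array, tumours left of muscles for each of 5 pairs, with array numbers and lines at the group means. Every tumour is above every muscle for Top2a minus Top2b and Smc4 minus Smc3, and tumour 1 lies within or below the muscle range in the 3 other pairs.

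Tumours differed from each other in which members were high, here by the brightest probe set of each gene. Tumour 1 had the lowest tumour signal for 5 of the 9 genes, Top2b, Smc2, Smc4, Smc3 and Rad21, whereas 20.1% of all genes were lowest there. By its second probe set, however, Smc3 was highest in tumour 1. Relative to the muscle mean its log2 values were -0.16 for Smc2 and 1.00 for Smc4, against 2.22 to 3.11 and 2.28 to 3.25 in the other tumours. In the same tumour Top2a, Ncaph and Ncapd2 stood at 3.65, 2.29 and 1.43, within the range of the others. The second Ncaph probe set also placed tumour 1 within that range, but near its lower end. Tumour 2 had the lowest signals of Ncaph, Ncapd2 and Smc1a, and 39.2% of all genes were lowest there. Tumour 4 had the highest signal for 6 of the 9 genes, and 17.1% of all genes were highest there. The spread over tumours was smallest for Top2a and Smc1a (SD of log2 0.35 each) and largest for Smc2 (1.24), against a median of 0.70 over all genes. Among muscles the SD of Top2a was 1.03, against a median of 0.36 over all genes.

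**Figure D4:**
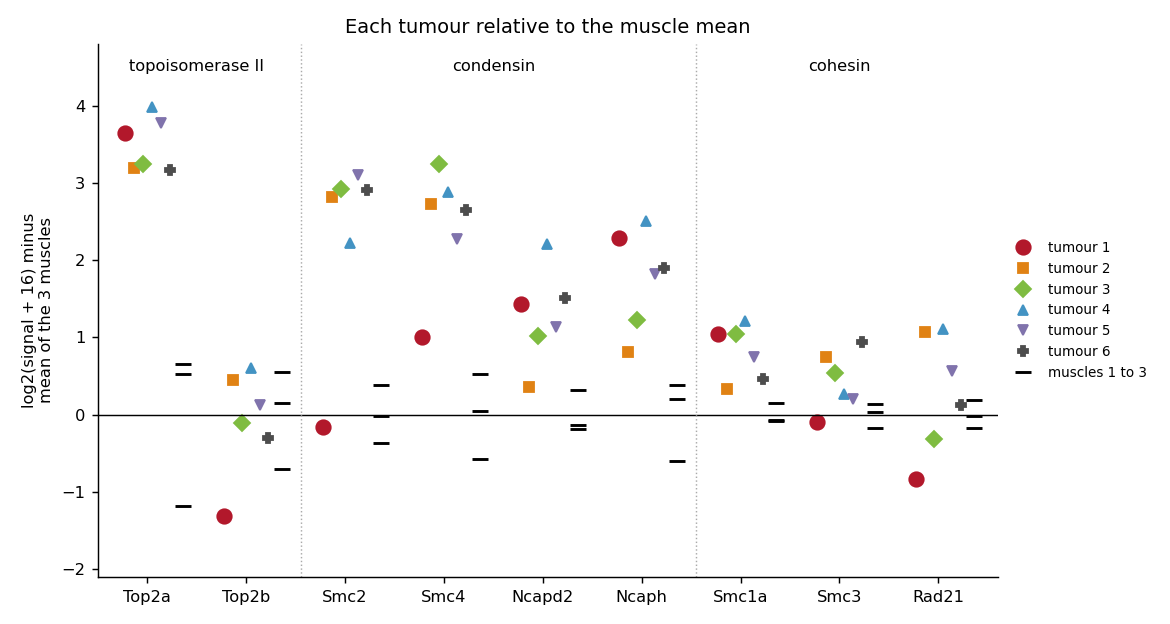
Log2(signal + 16) of each tumour minus the mean of the 3 muscles, 1 column of symbols per gene, with bars for the single muscles. Tumour 1 stands apart from the other tumours for Smc2 (-0.16) and Smc4 (1.00) but not for Top2a (3.65).

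Of 26 related genes outside the list of dividing cells, 4 were called higher and 1 lower, against 8.66% and 9.09% of all genes. Their median log2 difference was 0.38, against 0.10 over all genes. Of 4 further condensin genes 3 were measured and 0 were called. Ncapg2 and Ncaph2 differed by 0.87 and 0.54 (limma adjusted p = 0.28 and 0.51), and their groups overlapped. By another Ncaph2 probe set every tumour was above every muscle, but it was not called (log2 0.71, adjusted p = 0.16 over all probe sets). For Ncapg, a HEAT-repeat subunit of condensin I, the 2 probe sets disagreed. The one with the higher mean over all arrays gave 39.1 to 315.2 in tumours and 24.1 to 214.8 in muscles (log2 0.59, adjusted p = 0.65). The other gave 149.0 to 380.7 in tumours and 5.6 to 14.0 in muscles, a difference of 3.16 ± 0.44 (adjusted p = 0.00027 over all probe sets). Averaged over both, Ncapg was called higher (log2 1.88, adjusted p = 0.011, in a range of 0.011 to 0.99 over 20 alternatives). Of 6 further cohesin genes 5 were measured and 0 were called. Stag1 and Stag2, the alternative subunits that bind RAD21 in somatic cells, differed by 0.30 and -0.69 (adjusted p = 0.68 and 0.20). The meiotic genes Smc1b and Rec8 were dim, with at most 41.5 and 54.9 in tumours and 33.7 and 25.7 in muscles.

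Of 14 genes that regulate cohesin 8 were measured, and 3 were called higher, 1 lower and 4 not. Cdca5 encodes sororin, which protects cohesion from release until mitosis, and had signals of 810.1 to 3195.3 in tumours and 219.8 to 349.7 in muscles. It rose 6.64-fold (log2 2.73 ± 0.43, adjusted p = 0.00063). Its second probe set differed by 2.10-fold (log2 1.07) and was not called (adjusted p = 0.052 over all probe sets). Sgo1 encodes shugoshin, which guards cohesin at centromeres, and rose 5.54-fold, with means of 274.8 ± 127.5 in tumours (n = 6, SD) and 31.8 ± 8.7 in muscles (n = 3, SD; adjusted p = 0.0037). Pds5a encodes a cohesin-associated regulator and rose 2.57-fold (adjusted p = 0.018), a call lost without muscle 1 (0.056), without muscle 3 (0.13) and with median centring (0.07), in a range of 0.0044 to 0.42 over 21 alternatives.

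Esco1, an acetyltransferase of SMC3, was the 1 gene called lower. It had signals of 168.1 to 476.3 in tumours and 559.6 to 684.8 in muscles (log2 -1.21 ± 0.39, adjusted p = 0.046). The Esco1 call held in 8 of 21 alternatives and was lost without any 1 of the muscles (0.13 to 0.16) or of tumours 3 to 5 (0.077 to 0.089), and with its dim second probe set averaged in (log2 -0.55, 0.47), in a range of 0.015 to 0.63. Pttg1 encodes securin, the inhibitor of separase, and missed the threshold at 1.74 ± 0.58 (adjusted p = 0.051). Pttg1 was called in 7 of 21 alternatives. Nipbl, Mau2 and Ctcf, the cohesin loaders and the factor that halts loop extrusion, were not called, at 0.56, -0.89 and 0.20. Of 6 genes of the related Smc5-Smc6 complex 5 were measured, and Nsmce2, a SUMO ligase subunit, rose 2.62-fold (adjusted p = 0.011); that call was lost without muscle 2 (0.082, in a range of 0.0034 to 0.33 over 21 alternatives). All 5 genes of other topoisomerases were measured and 0 were called, Top1 at 0.05.

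**Figure D5:**
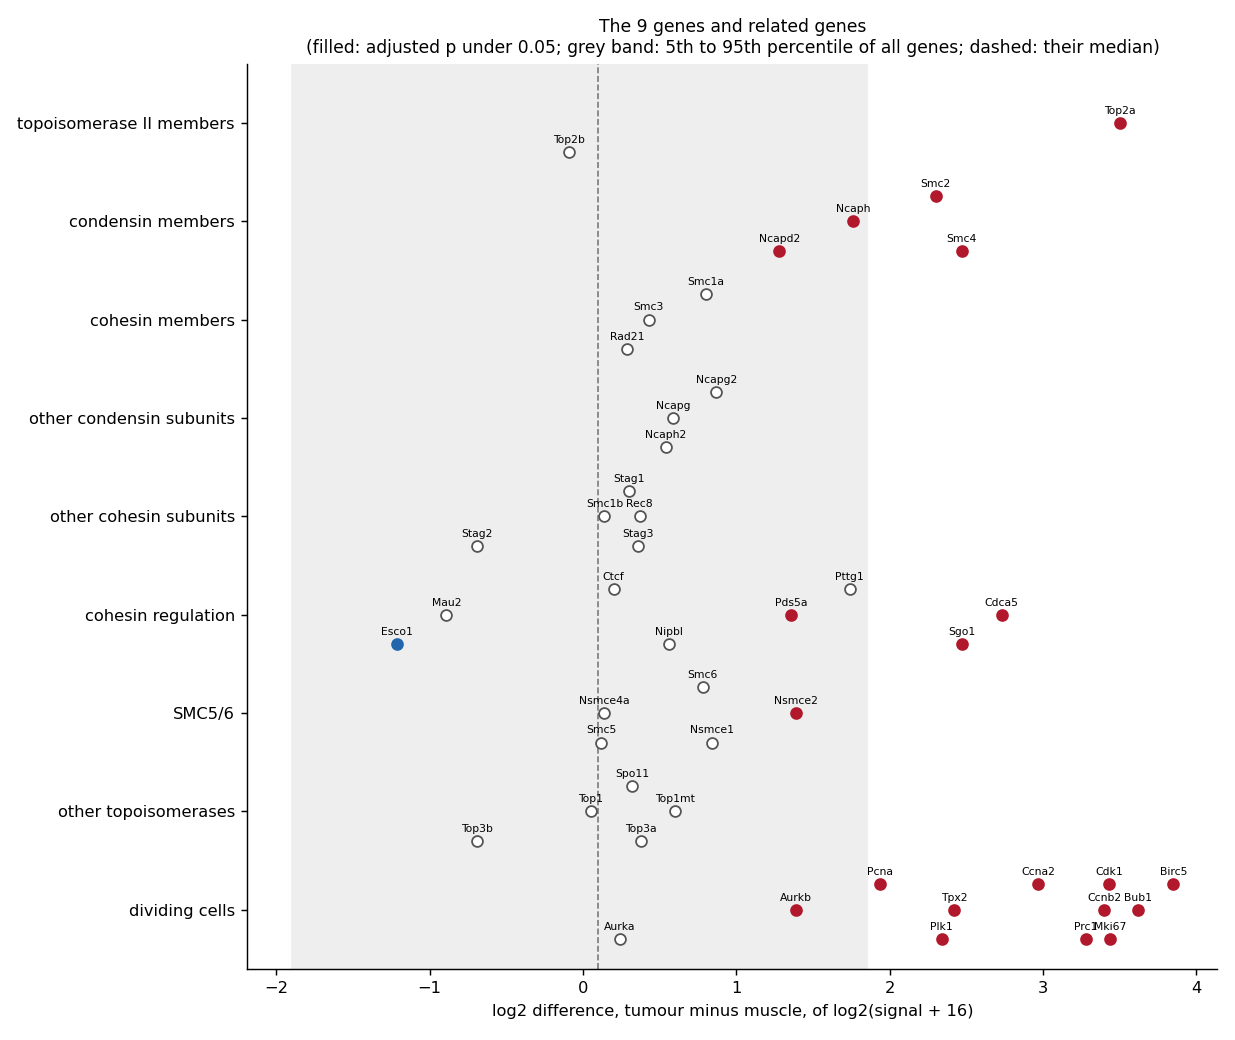
Log2 difference of tumour minus muscle for the 9 genes and 38 related genes, by list, filled where called, over a grey band from the 5th to the 95th percentile of all genes. Top2a (3.50) lies among the genes of dividing cells, Smc2 (2.30) and Smc4 (2.47) lie above the band, and the other 6 members lie inside it, the called Ncapd2 (1.28) and Ncaph (1.76) among them.

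Genes of dividing cells were higher in the same tumours. Of 13 listed genes 12 were measured and 11 rose, and the median of their log2 differences was 3.12. Mki67, the proliferation antigen Ki-67, rose by 3.44 ± 0.57 (adjusted p = 0.00097) and Cdk1, the mitotic kinase, by 3.43 ± 0.36 (adjusted p = 3.1e-05). Aurka was not called (log2 0.24, adjusted p = 0.83). The summed signal of the 12 genes was 12450 to 18173 in tumours, lowest in tumour 1, and 2007 to 3581 in muscles, lowest in muscle 3. Gene by gene, tumour 2 was the lowest tumour for 5 of the 12 and tumour 1 for 3, against 39.2% and 20.1% of all genes. Pcna, the brightest of the 12 in tumours, gave 1307.9 in tumour 1 and 3187.3 to 5630.9 in the others. The place of tumour 1 as lowest in the sum rests on Pcna, since without it the sum is lower in tumour 2. By the brightest probe set of each gene, muscle 3 was the lowest muscle for 8 of these 12 genes, against 30.3% of all genes. It was also the lowest for Top2a. Second probe sets did not order the muscles alike. Those of Prc1 and Bub1 were highest in muscle 3, those of Aurkb and Tpx2 were lowest there, and that of Ccna2 was lowest in muscle 2.

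Markers of macrophages, adult muscle and adipocytes also differed between the groups. Of 6 macrophage genes 4 were called higher, against 8.66% of all genes. Their summed signals were 6798 to 29963 in tumours and 2459 to 3873 in muscles. Most of each tumour sum came from Csf1r in tumour 1, where it gave 26580.1, and Csf1r ranged down to 4091.4 in tumour 6. Lyz2 (log2 1.86) and Itgam (log2 -1.01) were not called. All 7 adult muscle genes were called lower, with sums of 1424 to 77260 in tumours, highest in tumour 1, and 145123 to 212369 in muscles. All 3 measured adipocyte genes were called lower, as were 1 of 5 endothelial and 1 of 6 fibroblast genes. Among all genes 9.09% were called lower. None of 6 T cell and 3 B cell genes was called, with sums of 243 to 1107 and 158 to 745 in tumours and of 343 to 449 and 373 to 524 in muscles. No marker signal was at 0. The part of these cells in the differences of the 9 genes was not tested.

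The genes with the profile most like that of each topoisomerase over the 9 arrays were found among 6187 genes brighter than the median gene. Likeness was the root mean square difference of log2 values after each gene was centred on its own mean. For Top2a these were Sec61a1 (0.384), Cdk1 (0.427), Trip13 (0.430), Ccnb2 (0.457) and S100a10 (0.472). Their log2 differences were 2.74 to 3.43, close to the 3.50 of Top2a because the measure of likeness includes the gap between the groups. For Top2b they were Dcps (0.238), Tdrd3 (0.265), C1d (0.298), Grcc10 (0.304) and Usp7 (0.309), with differences of -0.37 to 0.03.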

How the data were processed

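RNA of 6 tumours and 3 muscles was biotin-labelled and hybridised, per the labels' protocols. Each array has 1 deposited intensity for every probe set, a MAS5 signal on a linear scale, and the submitters' processing notes name MAS5 without a version. The sources used here do not give its scaling target or filters. Detection calls were left aside, so low signals can be background.

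Every array was multiplied to the median of the trimmed means (2% cut at each end). Of 22690 probe sets, 64 controls were left out; 20380 had 1 symbol in the platform annotation, 691 several and 1555 none. For each gene, the brightest probe set by mean log2 value over the 9 arrays was used. Tests used limma 3.58.1 in R 4.3.3 (lmFit, eBayes with trend) on log2(signal + 16), over all genes and again over all probe sets, with Benjamini-Hochberg adjustment. Folds on this scale are understated for dim genes. Pair tests were exact permutation tests (scipy 1.17.1, Python 3.11.15). The fit was tested on simulated data.

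The members, lists and the rescaling were chosen with earlier results of these data known. The promoter motifs were chosen in this knowledge too. The genes named are the 9 members, genes of the fixed related lists, and for Top2a and Top2b the 5 genes with the smallest root mean square difference of centred profiles. Alternatives were other scalings and offsets, a filter on low values, averaged probe sets, no trend, a replicate block and leaving out arrays. The labels do not pair tumours with muscles, so the numbers were not taken to pair samples. Same-numbered tumours and muscles had deviations correlated at 0.23, 0.18 and -0.02, against -0.21 to 0.07 for the other combinations. With 3 arrays per group these values cannot decide whether samples were paired.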

Additional observations from a re-analysis of the deposited data

Results flagged for a closer look

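Tumour 1 lay far below the other 5 tumours in 3 of 14 sets of tumour values examined, where chance gives about 1 in 20. Its Smc2 signal was 236.5, against 1299.7 to 2417.7 in the others. Its log2 value of Smc2 minus Smc3 was -0.54, against 1.49 to 2.44 in the others, and that of Smc4 minus Smc1a was -0.82, against 0.76 to 1.63. The 3 values share this array and, in part, the same gene.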

How the results depend on the processing

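Top2a was called higher in all 21 alternatives, at log2 differences of 1.84 to 4.19 and adjusted p of 5.4e-07 to 0.027, and Smc4 in 20 of 21. Top2b, Smc3 and Rad21 were called in 0 of 21. Ncaph was called in 17, Smc2 in 15, Ncapd2 in 9 and Smc1a in 2. Leaving out 1 array gave 2 to 6 called members, 3 to 7 called member probe sets, 13 to 17 called related genes and 1110 to 2769 called genes. The counts with all arrays were 5, 7, 16 and 2200. Without muscles 2 and 3, with the lone muscle assumed to vary like the tumours, they were 1, 1, 2 and 173. Fewer arrays enter that comparison. With the replicate block, on tumours and muscles 1 to 3, there were 3 called members and 4 called member probe sets, and on the same arrays with no block, an alternative chosen after seeing the data, 2 and 3, with 10 related genes and 1089 genes in all. The block raised that last count to 1467. By correlation of deviations, only arrays numbered 1 and 2 were most like their own number. Without tumours 1 and 4 the called members were 4, all but Ncapd2. Without the rescaling of 2 muscle arrays 86.5% of calls were higher, instead of 48.8%, the median of all genes was 0.79 instead of 0.10, and 6 members were called, with Smc1a the sixth. Leaving out 1 array gave gaps of 2.93 to 4.27 for Top2a minus Top2b, 1.30 to 2.04 for Smc2 minus Smc1a, 1.66 to 2.25 for Smc2 minus Smc3, 1.41 to 2.00 for Smc4 minus Smc1a and 1.68 to 2.27 for Smc4 minus Smc3. All 5 passed without tumour 1, the only exception in 3 of them, at an adjusted exact p of 0.036, the smallest possible there. With averaged probe sets the gap was 1.99 for Top2a minus Top2b and 1.33 for Smc4 minus Smc3, and without muscles 2 and 3 it was 1.05 for Smc4 minus Smc1a. The causes of these changes were not tested.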

Other observations

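Probe sets of 1 gene differed in how they ordered the muscles, in 2 genes of dividing cells chosen after their values were seen. Among the genes not chosen, Aurkb and Tpx2 had second probe sets that were lowest in muscle 3. The brightest Tpx2 probe set was highest there. Prc1, a protein of the central spindle, gave 709.2 to 1964.7 in tumours, against 274.3, 180.2 and 26.2 in muscles 1 to 3, by its brightest probe set. By its other probe set it gave 138.0 to 468.2 in tumours, against 52.5, 66.4 and 107.0 in muscles 1 to 3. Bub1, a spindle checkpoint kinase, gave 185.3 to 579.7 in tumours, against 21.9, 10.4 and 8.6 in muscles 1 to 3, by the probe set used. By the other it gave 48.8 to 201.6 in tumours, against 113.5, 83.8 and 134.6 in muscles 1 to 3, and was not called (log2 0.03, limma adjusted p = 0.98 over all probe sets).

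Securin was read by 3 probe sets that differed in brightness and not in direction. By 1 of them Pttg1 rose, at means of 648.3 ± 298.5 in tumours (n = 6, SD) and 190.8 ± 105.6 in muscles (n = 3, SD; limma adjusted p = 0.017 over all probe sets). The other 2 differed by 1.74 and 1.69, with adjusted p of 0.053 and 0.11.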
